A study of Homo sapiens with 9 samples.

Results

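The 10 receptor tyrosine kinases EGFR, ERBB2, ERBB3, ERBB4, MET, IGF1R, INSR, AXL, KIT and DDR1 were followed through mRNA sequencing of Huh-7 cells, an established human hepatocellular carcinoma line. They were chosen by gene symbol, with earlier results of these data known, and each matched 1 of the 60664 Ensembl identifiers in the deposited count table. Of the 10, 9 had enough reads to be tested, among 17207 tested genes in all, and KIT did not. The study compared wild type cells (WT) with cells lacking the vault RNA gene for vtRNA1-1 (1-1 KO) or vtRNA1-2 (1-2 KO), with 3 libraries for each line.

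Vault RNAs are short non-coding RNAs made by RNA polymerase III. All 3 lines grew untreated in DMEM/F12 medium with serum to 80% confluency, so that serum growth factors were present in every sample. WT and 1-1 KO cells had been obtained from another laboratory, and 1-2 KO descended from 1 cell of that WT culture edited with CRISPR/Cas9. Each knockout was therefore 1 line, and an effect of the deleted gene and any other difference between the lines cannot be told apart. RNA was extracted in triplicate, and p-values here measure the spread between libraries of the same line. The libraries held between 32384469 and 41782387 counts. The targeted RNAs could not be checked in these mRNA libraries, since VTRNA1-2 had 0 counts in all 9 and VTRNA1-1 had 1 count in 1 library. All 8 hepatocyte markers examined were above 1 CPM (counts scaled to the TMM-adjusted library size) in every library, and their summed level was 13520 to 14437 CPM in WT, 28942 to 29846 CPM in 1-1 KO and 19957 to 21844 CPM in 1-2 KO. In 1-1 KO 7 of the 8 were called higher and 0 lower, and in 1-2 KO 4 were higher, 2 lower and 2 not called, with a median log2 fold change of 0.09, ALB and AFP having the largest rises. Of all tested genes, 32.5% were called higher and 30.9% lower in 1-1 KO, and 28.2% and 26.2% in 1-2 KO.

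Receptor tyrosine kinases span the cell membrane, bind a ligand outside the cell and phosphorylate tyrosines inside it, where adaptor proteins dock and pass the signal to the MAPK/ERK and PI3K/AKT pathways. In hepatocytes EGFR and MET, the receptors for epidermal and hepatocyte growth factor, take part in liver regeneration, and INSR relays the insulin signal. ERBB2 has no known direct ligand and acts with other ERBB proteins, and the kinase domain of ERBB3 has little activity of its own.

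Levels were compared between receptors per length, in RPKM, which divides CPM by the summed exon length in kilobases. In WT, MET had the highest mean level at 25.5 RPKM, followed by EGFR at 15.8, ERBB3 at 12.9, IGF1R at 7.57, ERBB2 at 6.996 and INSR at 4.31 RPKM. DDR1 was lower, at 1.17 RPKM, and AXL at 0.368, ERBB4 at 0.0425 and KIT at 0.00394 RPKM closed the order. The same 7 receptors were above 1 RPKM in each line. In 1-1 KO, EGFR came first at 24.98 RPKM, before MET at 21.99 and ERBB3 at 20.4 RPKM, and INSR at 6.998 stood above IGF1R at 3.46 RPKM. In 1-2 KO, MET was first again at 23.0 RPKM, ERBB3 at 15.6 RPKM was above EGFR at 9.09 RPKM, and ERBB4 at 0.320 RPKM was above AXL at 0.138 RPKM. The 3 libraries of neighbours in these orders did not overlap, except for AXL and KIT in 1-1 KO, at 0.0157 and 0.00288 RPKM. With the longest transcript as the length, the same 7 receptors were above 1 RPKM, but the order changed in every line. ERBB2 moved above IGF1R in WT. In 1-1 KO ERBB3 and ERBB2 moved above MET, and DDR1 above IGF1R. In 1-2 KO ERBB3 moved above MET, ERBB2 above EGFR, and DDR1 above IGF1R and INSR.

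RefSeq windows on GRCh38.p14, from 250 bases before to 50 bases after a start, were at hand for 9 of the 10 genes, and for 5 of them a window sat at the start of the GENCODE gene. ERBB4 and DDR1, which differed more between lines than IGF1R, had no such window and are not shown. The windows of EGFR and INSR, which moved in opposite directions in the knockouts, and of IGF1R and AXL, whose line means spanned more than 2-fold, are printed. Each is given 5′ to 3′ on the strand of the gene, with capitals marking GGGCGG or its reverse complement CCGCCC, the core of a GC box.
EGFR, chr7:55018767-55019066, plus strand: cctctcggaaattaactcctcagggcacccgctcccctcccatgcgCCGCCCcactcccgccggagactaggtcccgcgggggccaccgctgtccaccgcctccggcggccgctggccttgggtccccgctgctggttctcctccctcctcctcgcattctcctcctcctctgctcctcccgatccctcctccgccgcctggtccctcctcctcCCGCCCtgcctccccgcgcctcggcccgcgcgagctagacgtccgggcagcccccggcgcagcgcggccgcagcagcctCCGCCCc
INSR, chr19:7294365-7294664, minus strand: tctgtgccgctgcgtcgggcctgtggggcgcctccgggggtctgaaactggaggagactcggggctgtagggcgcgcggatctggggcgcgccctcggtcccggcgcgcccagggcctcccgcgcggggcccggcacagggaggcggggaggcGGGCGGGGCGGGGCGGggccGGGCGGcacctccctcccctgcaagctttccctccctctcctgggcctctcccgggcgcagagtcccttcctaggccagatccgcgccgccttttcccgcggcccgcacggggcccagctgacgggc
IGF1R, chr15:98648289-98648588, plus strand: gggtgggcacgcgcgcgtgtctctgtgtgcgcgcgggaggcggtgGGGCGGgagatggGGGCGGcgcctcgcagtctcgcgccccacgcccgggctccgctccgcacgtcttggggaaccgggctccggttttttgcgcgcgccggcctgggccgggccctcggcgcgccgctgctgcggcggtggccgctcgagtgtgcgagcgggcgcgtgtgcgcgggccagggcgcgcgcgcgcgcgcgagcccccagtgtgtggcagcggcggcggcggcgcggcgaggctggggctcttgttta
AXL, chr19:41218973-41219272, plus strand: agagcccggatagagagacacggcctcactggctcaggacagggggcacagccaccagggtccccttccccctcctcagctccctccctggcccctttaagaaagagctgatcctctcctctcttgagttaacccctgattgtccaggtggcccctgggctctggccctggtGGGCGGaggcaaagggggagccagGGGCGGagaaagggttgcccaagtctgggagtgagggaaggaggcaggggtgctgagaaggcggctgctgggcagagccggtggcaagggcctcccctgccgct

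The EGFR window held 3 GC boxes, INSR 4, IGF1R 2 and AXL 2, counted on both strands and with overlapping matches counted separately, and 45.0% of all 35116 windows held at least 1. CpG dinucleotides numbered 55 in the IGF1R window, 36 in INSR, 33 in EGFR and 7 in AXL, against a median of 14 over all windows. The MET window, not printed, held 30 CpG and 3 GC boxes. None of the 5 windows held TATAAA or TGACTCA on either strand, which 11.5% and 4.95% of all windows did. These matches describe the letters of the reference and not binding in these cells.

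Compared to WT, 6 of the 9 tested receptors were higher and 3 lower in 1-1 KO, by edgeR's quasi-likelihood test at an adjusted p under 0.05. Over all tested genes, 63.4% were called in this comparison, 32.5% higher and 30.9% lower, so that a call alone was common. The median log2 fold change was 0.66 over the 9 receptors and 0.01 over all tested genes. In 1-2 KO compared to WT, 4 receptors were higher and 5 lower, where 54.4% of all tested genes were called, 28.2% higher and 26.2% lower, with medians of -0.15 over the receptors and 0.02 over all tested genes. In 1-2 KO compared to 1-1 KO, 3 were higher, 5 lower and MET not called, where 65.3% of all tested genes were called, 33.1% higher and 32.2% lower, with medians of -0.39 and 0.01. Calls past 2-fold were made in 1-1 KO for ERBB4 upward and for IGF1R and AXL downward, among 13.4% of all tested genes, 9.4% upward and 3.97% downward. In 1-2 KO they were made for ERBB4 and DDR1 upward and for AXL downward, among 11.7% of all tested genes, 8.62% upward and 3.06% downward. Between the knockouts AXL was higher and EGFR lower in 1-2 KO past that limit, as were 7.33% and 6.81% of all tested genes, 14.1% in both directions. EGFR and INSR were called higher in one knockout and lower in the other, as were 11.7% of all tested genes. The 2 knockouts were compared to the same 3 WT libraries, so that their values are given side by side.

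**Figure D1:**
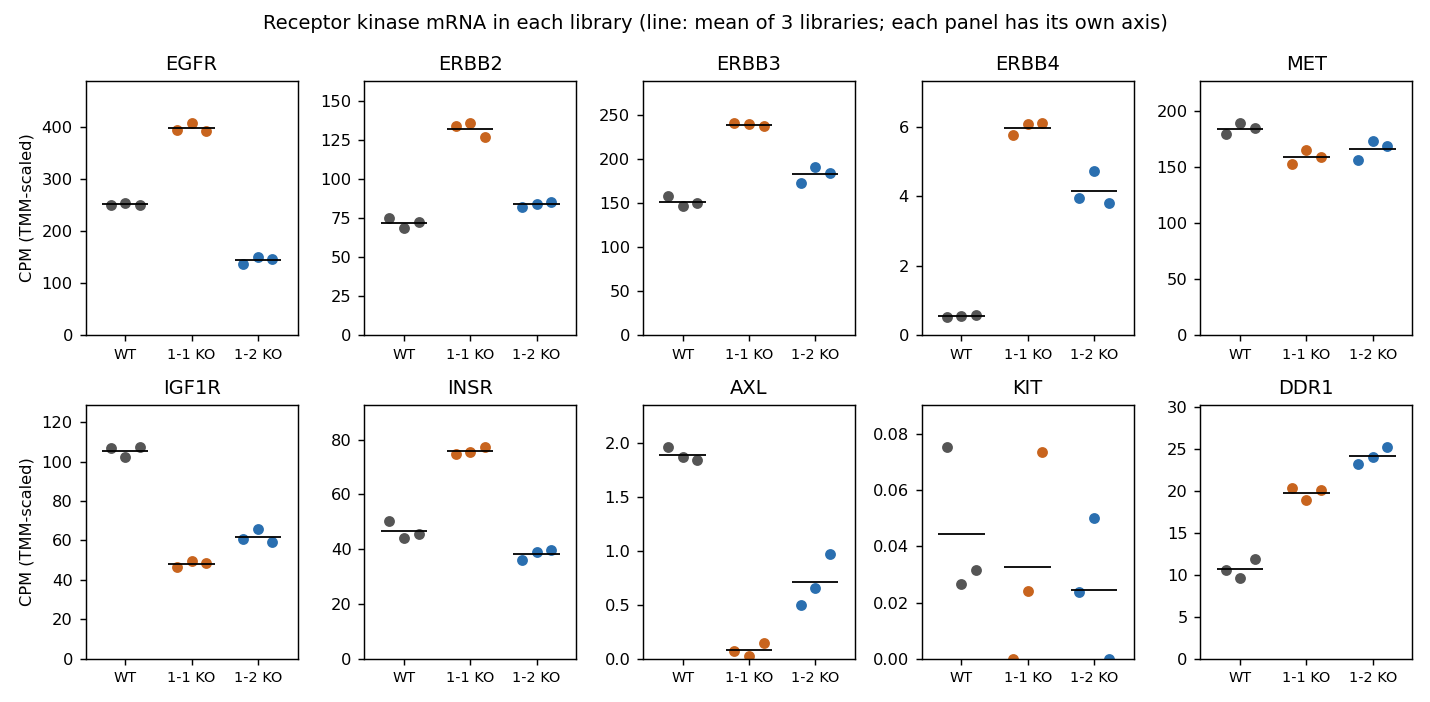
Level of each of the 10 receptors in each library, in CPM scaled by TMM, with 1 point per library and the bar at the mean of the 3 libraries of a line. EGFR is highest in 1-1 KO and lowest in 1-2 KO, ERBB4 is lowest in WT, and KIT is at 3 counts or fewer in every library.

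EGFR, the receptor for EGF and related ligands (ENSG00000146648, chr7:55019017-55211628, plus strand), rose in 1-1 KO and fell in 1-2 KO. Its level was 249, 255 and 249.7 CPM in WT, 395, 407 and 392 CPM in 1-1 KO, and 137, 151 and 147 CPM in 1-2 KO. The libraries of the 3 lines did not overlap. The log2 fold change against WT was 0.66 ± 0.04 (SE) in 1-1 KO, with an adjusted p of 2.91e-09, and -0.79 ± 0.04 in 1-2 KO, with an adjusted p of 6.6e-10. Compared directly, 1-2 KO had 2.75-fold less EGFR mRNA than 1-1 KO, with an adjusted p of 7.8e-13. The 50 nearest tested genes on the chromosome had median log2 fold changes of -0.02 and -0.09 against WT. An antisense gene inside the locus, EGFR-AS1, had 148 to 240 counts, against 5770 or more for EGFR.

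ERBB2, the partner of the other ERBB receptors (ENSG00000141736, chr17:39687914-39730426, plus strand), was higher in both knockouts. It stood at 74.9, 68.9 and 72.8 CPM in WT, at 134, 136 and 127 CPM in 1-1 KO, and at 82.4, 84.0 and 85.5 CPM in 1-2 KO, without overlap between lines. The rise was 1.83-fold in 1-1 KO, with an adjusted p of 2.79e-10, and 1.16-fold in 1-2 KO, with an adjusted p of 0.00041. ERBB2 overlaps PGAP3 and MIEN1 on the opposite strand, with 186 to 294 and 1073 to 1348 counts, and whether the counting used the strand is not given in the sources used here.

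ERBB3, the neuregulin receptor that relays mainly through PI3K (ENSG00000065361, chr12:56076799-56103505, plus strand), had the same order of lines as ERBB2. It measured 158, 146 and 149.8 CPM in WT, 240.3, 239.7 and 237 CPM in 1-1 KO, and 173, 191 and 184 CPM in 1-2 KO, and again no library of one line fell among those of another. The fold was 1.58 in 1-1 KO, with an adjusted p of 6.92e-09, and 1.21 in 1-2 KO, with an adjusted p of 7.15e-05. For both ERBB2 and ERBB3 the level in 1-2 KO was below that in 1-1 KO, by 1.58-fold and 1.31-fold, with adjusted p of 3.47e-09 and 1.28e-06.

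ERBB4, the other neuregulin receptor and the only one besides EGFR with both a ligand and an active kinase (ENSG00000178568, chr2:211375717-212538841, minus strand), rose most of the 9 tested receptors. It was read only 18 to 21 times in each WT library, 244 to 250 times in 1-1 KO and 153 to 188 times in 1-2 KO. These counts correspond to 0.528, 0.560 and 0.571 CPM in WT, 5.77, 6.08 and 6.10 CPM in 1-1 KO, and 3.94, 4.72 and 3.82 CPM in 1-2 KO. The log2 fold change was 3.43 ± 0.14 (SE) in 1-1 KO, a 10.8-fold rise with an adjusted p of 7.93e-11, and 2.91 ± 0.14 in 1-2 KO, a 7.5-fold rise with an adjusted p of 7.4e-10. Even so, ERBB4 stayed far below the other family members per length in every line.

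**Figure D2:**
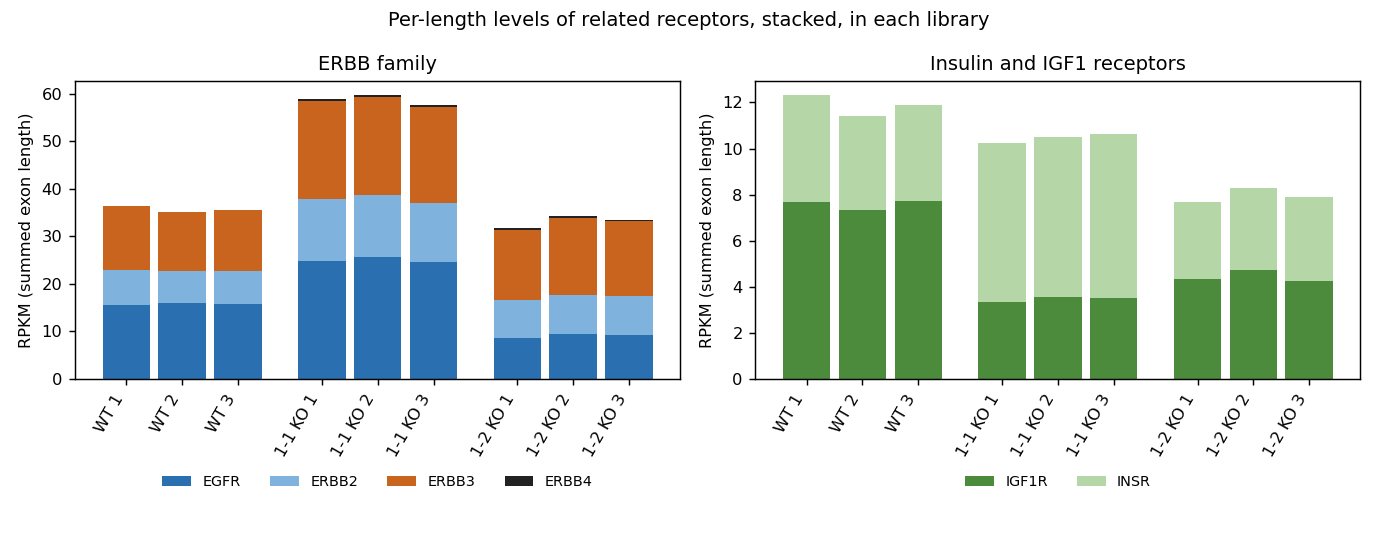
Stacked levels in RPKM of the ERBB receptors (left) and of the insulin and IGF1 receptors (right), with 1 bar per library. The ERBB total is 57.6 to 59.6 RPKM in 1-1 KO, above both other lines, and INSR makes up most of the right-hand bar in 1-1 KO alone.

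Summed over the 4 ERBB genes, the level was 35.7 ± 0.653 RPKM (SD, n = 3) in WT, 58.7 ± 1.01 RPKM in 1-1 KO and 33.1 ± 1.34 RPKM in 1-2 KO. The 1-1 KO total was raised at nearly the same composition, with EGFR at 44.1% of the sum in WT and 42.6% in 1-1 KO. In 1-2 KO the total was close to that of WT, from 31.7 to 34.3 RPKM against 35.2 to 36.4 RPKM, but EGFR made up 27.4% of it and ERBB3 47.1%, against 36.2% for ERBB3 in WT. The EGFR share ranged from 27.1% to 27.7% over the 1-2 KO libraries and from 42.2% to 45.4% over the other 6 libraries. ERBB4 was at most a small part, with mean shares of 0.119% in WT, 0.784% in 1-1 KO and 0.964% in 1-2 KO. These shares rest on summed exon lengths and would differ with another length. With the longest transcript, ERBB2 at 17.0 RPKM stood above EGFR at 14.6 RPKM in 1-2 KO. The shares are of mRNA, and protein at the membrane was not measured here.

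**Figure D3:**
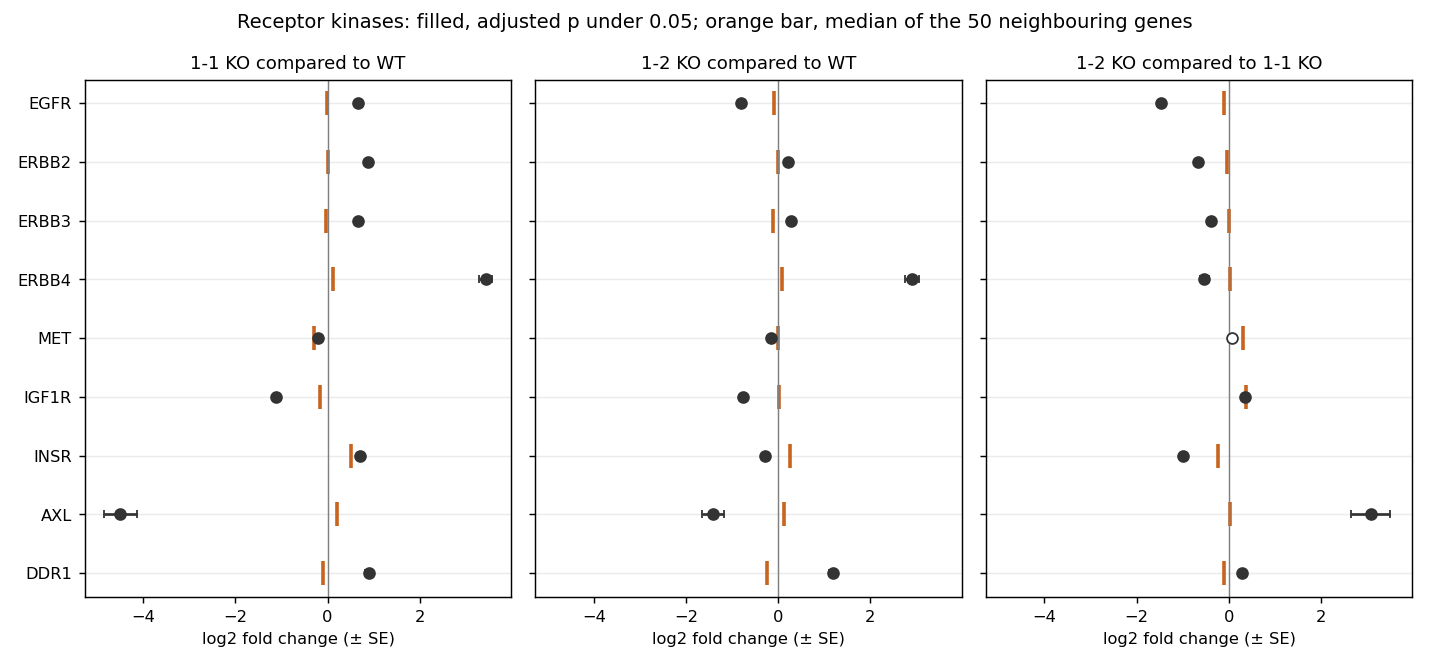
Log2 fold change with its SE for the 9 tested receptors in the 3 comparisons. EGFR and INSR lie on opposite sides of 0 in the 2 knockouts, ERBB4 is the highest point against WT in both, and AXL the lowest. Orange bars mark the median of the 50 neighbouring genes, and the open point, MET between the knockouts, is not called.

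Of the ligands of the ERBB receptors, EGF and EREG were called in the same directions as EGFR in both knockouts. EGF rose from 2.47 ± 0.113 CPM (SD, n = 3) in WT to 11.6 ± 0.588 CPM in 1-1 KO, with a log2 fold change of 2.23 and an adjusted p of 1.72e-10. It fell to 0.976 ± 0.136 CPM in 1-2 KO, with a log2 fold change of -1.34 and an adjusted p of 8.26e-07. EREG, which binds EGFR and ERBB4, was at 7.56 CPM in WT, 9.44 CPM in 1-1 KO and 3.96 CPM in 1-2 KO, with adjusted p of 0.00406 and 8.44e-07 against WT. BTC, another ligand of both, fell from 4.38 to 1.91 CPM in 1-2 KO with an adjusted p of 7.05e-06, and was at 4.51 CPM in 1-1 KO with an adjusted p of 0.757.

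HBEGF rose in 1-1 KO, from 7.40 to 10.8 CPM with an adjusted p of 0.000268, and was at 6.81 CPM in 1-2 KO, with an adjusted p of 0.355. AREG was called lower in 1-2 KO, at 9.53 against 12.6 CPM with an adjusted p of 0.0217, although its libraries overlapped those of WT, and in 1-1 KO it measured 14.3 CPM with an adjusted p of 0.193. Compared directly, EGF, EREG, BTC, HBEGF and AREG were all lower in 1-2 KO than in 1-1 KO, as were 32.2% of all tested genes. The neuregulins NRG1 and NRG4 were higher there, with log2 fold changes of 0.48 and 1.42 and adjusted p of 0.00521 and 0.0031. NRG1, a ligand of ERBB3 and ERBB4, went the other way from these receptors and fell from 5.72 CPM in WT to 2.77 CPM in 1-1 KO and 3.86 CPM in 1-2 KO, with adjusted p of 6.24e-06 and 0.00144. NRG4, a ligand of ERBB4, rose in 1-2 KO from 0.159 to 0.952 CPM with an adjusted p of 0.000204. It had 2 to 8 counts in the WT libraries and passed the filter only with knockout libraries. NRG3 was at 0 counts in every WT and 1-1 KO library and at 7 to 15 counts in 1-2 KO, at least 3.24-fold higher than a WT level of 3 counts per library. TGFA, EPGN and NRG2 had too few reads to test. EREG, AREG and BTC lie close together on chromosome 4, between 74365145 and 74794523, and whether they changed separately was not tested.

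**Figure D4:**
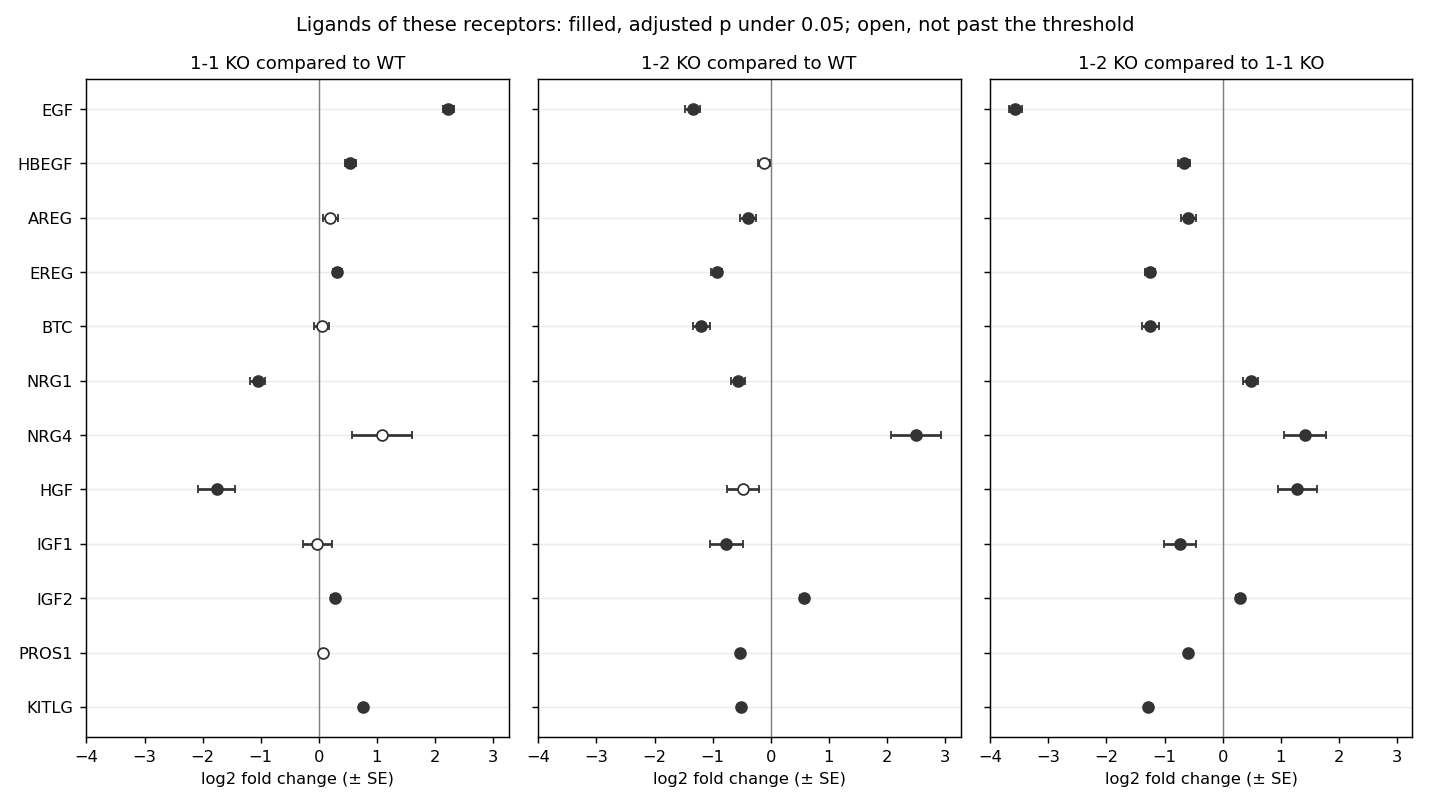
Log2 fold change with its SE for the 12 tested ligands of these receptors in the 3 comparisons, filled where the adjusted p is under 0.05. EGF is the highest point and HGF the lowest in 1-1 KO compared to WT, and 8 of the 12 ligands are called below 0 in 1-2 KO compared to WT.

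Over all 18 listed ligands, 12 were tested. In 1-1 KO 5 were called higher, 2 lower and 5 not called, with a median log2 fold change of 0.24 against 0.01 over all tested genes, of which 32.5% were called higher and 30.9% lower. In 1-2 KO 2 were higher, 8 lower and 2 not called, with a median of -0.52 against 0.02 over all tested genes, of which 28.2% were called higher and 26.2% lower. In 1-2 KO compared to 1-1 KO 4 were higher and 8 lower, with a median of -0.63 against 0.01 over all tested genes. Of these genes, 33.1% were called higher and 32.2% lower.

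MET, the receptor for hepatocyte growth factor (ENSG00000105976, chr7:116672196-116798377, plus strand), changed least. It was at 179, 189 and 184 CPM in WT, 153, 165 and 159 CPM in 1-1 KO, and 156, 173 and 169 CPM in 1-2 KO. Both knockouts lay below WT without overlap, by 1.16-fold and 1.11-fold with adjusted p of 0.000674 and 0.00965, while their own libraries overlapped, with a log2 difference of 0.06 ± 0.04 (SE) and an adjusted p of 0.221. The call in 1-2 KO compared to WT was lost when libraries were scaled by size alone, with an adjusted p of 0.0559. The 50 nearest tested genes had a median log2 fold change of -0.30 in 1-1 KO. With this subtracted, MET was at 0.09 with an adjusted p of 0.0962, which takes the neighbour median as fixed. The part of the neighbouring genes in the fall was not tested. HGF was scarce, with 5 to 32 counts per library. It fell from 0.739 to 0.217 CPM in 1-1 KO, with an adjusted p of 0.000255, and was at 0.534 CPM in 1-2 KO, with an adjusted p of 0.155. HPN, a membrane protease that can activate HGF, rose from 4.19 to 12.8 CPM in 1-1 KO, with an adjusted p of 1.79e-09, and was at 4.48 CPM in 1-2 KO, with an adjusted p of 0.388. MST1R, the receptor most like MET, had mean levels of 0.704 to 0.999 CPM and was not called in any comparison.

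IGF1R, the receptor for IGF1 and IGF2 (ENSG00000140443, chr15:98648539-98964530, plus strand), fell in both knockouts. Its level was 107, 102 and 107 CPM in WT, 46.7, 49.5 and 48.7 CPM in 1-1 KO, and 60.7, 65.6 and 59.4 CPM in 1-2 KO. No library of either knockout reached those of WT. The fall was 2.19-fold in 1-1 KO, with an adjusted p of 4.92e-11, and 1.7-fold in 1-2 KO, with an adjusted p of 2.66e-09. The knockouts also differed from each other, by 1.28-fold with an adjusted p of 5.79e-06, but the 50 nearest genes differed as much, with a median log2 fold change of 0.38 against 0.36 for IGF1R.

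INSR, the insulin receptor (ENSG00000171105, chr19:7112255-7294414, minus strand), rose in 1-1 KO and fell in 1-2 KO. It was at 50.4, 43.97 and 45.6 CPM in WT, 74.7, 75.5 and 77.2 CPM in 1-1 KO, and 35.9, 38.8 and 39.5 CPM in 1-2 KO, with no overlap between lines. The fold was 1.62 upward in 1-1 KO, with an adjusted p of 3.66e-08, and 1.23 downward in 1-2 KO, with an adjusted p of 0.000317. Its 50 nearest genes had a median log2 fold change of 0.50 in 1-1 KO and 0.26 in 1-2 KO, and with these subtracted INSR was at 0.20 and -0.56, with adjusted p of 0.00498 and 8.89e-07. These p-values take the neighbour median as fixed and leave out the spread among the neighbouring genes.

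The ratio of INSR to IGF1R per length therefore differed between lines. It was 0.569 ± 0.033 (SD, n = 3) in WT, 2.02 ± 0.0509 in 1-1 KO and 0.793 ± 0.0548 in 1-2 KO, with ranges of 0.546 to 0.606, 1.96 to 2.06 and 0.761 to 0.856. INSR thus exceeded IGF1R in 1-1 KO alone of the 3 lines. The sum of both receptors was 11.9 RPKM in WT, 10.5 RPKM in 1-1 KO and 7.96 RPKM in 1-2 KO.

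Of their ligands, INS had 0 counts in all libraries and IGF1 10 to 30 counts. IGF2 was abundant and rose in both knockouts, from 118 ± 11.4 CPM (SD, n = 3) in WT to 142 ± 12.8 CPM in 1-1 KO and 175 ± 7.45 CPM in 1-2 KO, with adjusted p of 0.00313 and 7.45e-06, although the libraries of 1-1 KO and WT overlapped. IGFBP2, which binds IGFs outside the cell, fell 13.7-fold in 1-1 KO, from 16.3 to 1.19 CPM with an adjusted p of 3.11e-12, and was at 16.5 CPM in 1-2 KO, with an adjusted p of 0.915. IGFBP3, the main IGF carrier in serum, rose from 14.7 to 46.3 CPM in 1-1 KO and to 26.6 CPM in 1-2 KO, with adjusted p of 5.12e-12 and 6.49e-09. PAPPA, a protease that frees IGFs from IGFBPs, and STC2, which inhibits it, rose in both knockouts and more in 1-2 KO. PAPPA went from 1.57 to 2.12 CPM in 1-1 KO and 5.00 CPM in 1-2 KO, with adjusted p of 0.0122 and 4.54e-08. STC2 went from 22.3 to 35.9 CPM in 1-1 KO and 78.1 CPM in 1-2 KO, with adjusted p of 1.85e-08 and 1.08e-12. IRS2, an adaptor of both receptors, rose 8.18-fold in 1-2 KO, from 1.32 to 10.8 CPM with an adjusted p of 7.65e-11, and was at 1.08 CPM in 1-1 KO, with an adjusted p of 0.125.

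AXL, a receptor of the TAM family that binds GAS6 (ENSG00000167601, chr19:41219223-41261766, plus strand), was scarce in WT and fell in both knockouts. It was read 78, 70 and 58 times in the WT libraries, 3, 1 and 6 times in 1-1 KO, and 21, 26 and 39 times in 1-2 KO. These are 1.89 ± 0.0635 CPM (SD, n = 3) in WT, 0.0808 ± 0.062 CPM in 1-1 KO and 0.708 ± 0.242 CPM in 1-2 KO, with no overlap between lines. The fitted log2 fold change was -4.50 ± 0.35 (SE) in 1-1 KO, with an adjusted p of 6.56e-08, and -1.42 ± 0.23 in 1-2 KO, with an adjusted p of 0.000141. From summed counts, 10 in 1-1 KO and 206 in WT, the level in 1-1 KO was 23.5-fold lower, with an exact 95% interval from 12.5 to 49.8 that covers counting error only. Without the third 1-1 KO library the fitted value was -5.21 against WT, and 3.79 in place of 3.08 in 1-2 KO compared to 1-1 KO. Of 4 mesenchymal markers, ACTA2 also fell in 1-1 KO, from 2.78 to 0.0807 CPM with an adjusted p of 1.68e-09, but rose to 6.26 CPM in 1-2 KO with an adjusted p of 6.1e-06. COL1A2 rose from 19.5 to 64.9 and 38.4 CPM, with adjusted p of 3.98e-11 and 2.11e-08, and COL1A1 was at 11.4, 10.51 and 13.3 CPM, with adjusted p of 0.132 and 0.00917. DCN was near 0 in all lines, and the sum of the 4 was 33.5 to 34.0 CPM in WT, 71.1 to 81.1 CPM in 1-1 KO and 54.4 to 60.6 CPM in 1-2 KO. The part of these markers in the result was not tested.

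The other TAM receptors were more abundant than AXL. TYRO3 rose slightly, from 77.6 CPM in WT to 101 CPM in 1-1 KO and 92.0 CPM in 1-2 KO, with adjusted p of 1.16e-06 and 0.000121, and MERTK fell slightly, from 22.8 to 20.3 and 19.4 CPM, with adjusted p of 0.0242 and 0.00534. GAS6 had 0 or 1 count in each library. PROS1, the other TAM ligand and a liver plasma protein that acts on TYRO3 and MERTK, fell from 224 to 155 CPM in 1-2 KO, with an adjusted p of 4.34e-09, and was at 235 CPM in 1-1 KO, with an adjusted p of 0.0874.

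DDR1, a receptor for collagen (ENSG00000204580, chr6:30876421-30900156, plus strand), rose in both knockouts. It was at 10.5, 9.57 and 11.8 CPM in WT, 20.3, 18.9 and 20.1 CPM in 1-1 KO, and 23.1, 24.0 and 25.2 CPM in 1-2 KO, with no overlap between lines. The rise was 1.86-fold in 1-1 KO and 2.27-fold in 1-2 KO, with adjusted p of 1.16e-07 and 7.99e-09, and the median of the 50 nearest genes was below 0 in both, at -0.10 and -0.24. DDR2, the related collagen receptor, was at 1.06 to 1.15 CPM and was not called in any comparison.

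KIT, the receptor for stem cell factor (ENSG00000157404, chr4:54657267-54740783, plus strand), had 3, 1 and 1 counts in WT, 0, 1 and 3 in 1-1 KO, and 1, 2 and 0 in 1-2 KO. No difference was detectable at this depth, where 3 counts correspond to 0.0725 to 0.0835 CPM. Its ligand KITLG was well expressed and followed the order of EGFR and INSR, at 54.0 ± 3.43 CPM (SD, n = 3) in WT, 92.2 ± 1.33 CPM in 1-1 KO and 37.9 ± 2.47 CPM in 1-2 KO, with adjusted p of 1.4e-08 and 1.81e-06. Of the relatives of KIT, PDGFRA did the same, at 5.97, 21.5 and 3.68 CPM with adjusted p of 1.06e-10 and 1.14e-05, and PDGFRB rose in both, from 1.77 to 5.45 and 6.53 CPM, with adjusted p of 1.02e-07 and 2.53e-08.

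Of 24 adaptors and effectors of these receptors, 21 were tested, and in each knockout 9 were higher, 6 lower and 6 not called, with medians of 0.10 and 0.04. Over all tested genes, 63.4% were called in 1-1 KO and 54.4% in 1-2 KO. SHC1, which links receptors to RAS, fell from 235 to 97.9 CPM in 1-1 KO with an adjusted p of 1.69e-12, where its 50 nearest genes had a median log2 fold change of -0.63. GAB2, a docking protein, fell in both, from 25.3 to 13.9 and 13.8 CPM, with adjusted p of 4.7e-08 and 5.57e-08. PLCG2, a phospholipase, and GRB7, an adaptor of ERBB2, rose in both, to 2.22 and 2.77 CPM from 1.29 CPM and to 9.42 and 11.7 CPM from 6.18 CPM. Their adjusted p were 0.00036 and 1.67e-05 for PLCG2, and 6.96e-05 and 1.33e-06 for GRB7.

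All 22 listed inhibitors were tested, with 6 higher, 9 lower and 7 not called in 1-1 KO, and 7, 7 and 8 in 1-2 KO, with medians of -0.04 and -0.08, beside the same 63.4% and 54.4% of all tested genes called. UBASH3B, a phosphatase that acts on receptor kinases, fell from 115 to 42.9 CPM in 1-1 KO and to 72.0 CPM in 1-2 KO, with adjusted p of 5e-12 and 9.38e-09. ERRFI1, which binds and inhibits the EGFR kinase, fell from 265 to 150.5 CPM in 1-2 KO, with an adjusted p of 6.06e-11, and measured 235 CPM in 1-1 KO, with an adjusted p of 0.000245. SOCS3, a feedback inhibitor, rose from 1.51 to 3.31 and 2.62 CPM, with adjusted p of 4.97e-06 and 0.000239. CBLC, a ubiquitin ligase for receptors, rose in 1-1 KO from 1.00 to 2.02 CPM with an adjusted p of 0.000102, and was at 0.869 CPM in 1-2 KO with an adjusted p of 0.387. Of 25 genes that bind, cut or process ligands, 23 were tested, with 12 higher, 7 lower and 4 not called in 1-1 KO and 9, 4 and 10 in 1-2 KO. Their medians were 0.43 and 0.11, and 63.4% and 54.4% of all tested genes were called. SPINT2, called higher in 1-1 KO, was at 3 counts or fewer in every WT and 1-2 KO library and passed the filter only through 1-1 KO. IGFBP5, called higher in both knockouts, had a WT mean of 0.100 CPM and passed only with knockout libraries. The counts and medians of this list include both genes.

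Of 48 other receptor kinases, 29 were tested, with 13 higher and 5 lower in 1-1 KO and 15 higher and 5 lower in 1-2 KO, and medians of 0.41 and 0.28. Of all tested genes, 32.5% were higher and 30.9% lower in 1-1 KO, and 28.2% and 26.2% in 1-2 KO. Some were nearly absent from WT. FGFR2, EPHA7, EPHB2 and FLT1, at 3 counts or fewer in every WT library, passed the filter only through knockout libraries. EPHA6, EPHA10, EPHB6, LMTK3 and ROS1 also passed only with knockout libraries. Their WT means were 0.120, 0.180, 0.214, 0.0857 and 0.222 CPM, and each was called higher in at least 1 knockout. All these genes could hardly be called lower than WT, and the counts and medians of this list include them. FGFR2, a receptor for fibroblast growth factors, had 0 counts in WT and 452 to 486 in 1-2 KO, at least 139-fold higher than 3 counts per library. EPHA7 and EPHB2, receptors for ephrins, had at most 1 and 3 counts in a WT library and were at least 155-fold and 58.4-fold higher in 1-2 KO. EPHB2 was at least 11.9-fold higher in 1-1 KO. AATK, a membrane kinase abundant in brain, rose from 0.444 to 1.44 CPM in 1-1 KO and to 2.23 CPM in 1-2 KO, with adjusted p of 4.48e-05 and 1.44e-06.

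Markers of other cell types were low or moved with the lines. The summed level of 4 endothelial markers was 7.42 to 8.14 CPM in WT, 6.50 to 7.29 CPM in 1-1 KO and 0.855 to 1.10 CPM in 1-2 KO, with CDH5 at 3 counts or fewer per library in WT and 1-1 KO. PECAM1 alone made up most of this sum, at a mean of 7.57, 6.67 and 0.839 CPM. The other 3 endothelial markers had too few reads to test, so the fall in 1-2 KO is that of 1 gene. The summed level of 4 immune markers was about 115 CPM in WT, 101 to 107 CPM in 1-1 KO and 21.5 to 22.4 CPM in 1-2 KO. CD68 was at 3 counts or fewer everywhere, and LYZ, at a mean of 113, 102 and 19.2 CPM, made up most of the sum. The other 2 tested immune markers were called higher in both knockouts, PTPRC from 0.153 to 0.522 and 0.998 CPM and CD14 from 1.34 to 2.86 and 1.78 CPM. Their part in the results on the receptors was not tested. In bulk samples such as these, fewer cells with a transcript and less of it per cell cannot be told apart.

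For the 5 receptors whose line means spanned more than 2-fold, the genes with the most similar profile over the 9 libraries were sought by the distance between centred log2 CPM. EGFR was closest to A2M at 0.175 and DSP at 0.191, ERBB4 to LYPD6B at 0.393 and HOXA13 at 0.558, and IGF1R to ASPH at 0.179 and OPTN at 0.192. DDR1 was closest to NRP2 at 0.262 and PCK2 at 0.279. The nearest to AXL were farther away, TIMP1 at 1.73 and SORCS2 at 1.86. These distances include the 1-1 KO libraries, where AXL had 3, 1 and 6 counts, or 0.0709, 0.0243 and 0.147 CPM. The part of such low counts in the distances was not tested, so a lack of similar genes cannot be read from them. In log2 fold change against WT, TIMP1 was at -4.82 for 1-1 KO and -1.55 for 1-2 KO, and SORCS2 at -3.86 and -1.03. AXL itself was at -4.50 and -1.42.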

How the data were processed

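The data were mRNA libraries from 3 Huh-7 lines, WT and the knockouts named 1-1 KO and 1-2 KO, with 3 libraries each, made with a kit that keeps the strand. The authors used STAR (GRCh38, annotation version 104) and featureCounts, and deposited a table of raw counts for each gene and library. The strand setting and the handling of reads that match several places are not given in the sources used here. Totals were 32384469 to 41782387 counts per library.

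All 9 libraries entered 1 fit in edgeR 4.0.16 (R 4.3.3), after filterByExpr (minimum count 10, minimum total 15) and TMM scaling. The quasi-likelihood test gave p-values, adjusted by the Benjamini-Hochberg method over 17207 genes, with 0.05 as the threshold. The SE is the log2 fold change divided by the square root of the F statistic. RPKM used summed exon lengths from GENCODE 44. A line with at most 3 counts in every library was taken as at the floor, and folds against it use 3 counts per library. Intervals and floors cover counting error only. The fit was run on simulated counts of 17207 genes with 1 common spread. It recovered 89 of 100 genes changed by a log2 fold change of 1 in either direction and 98 of 100 changed by 2, with 10 false calls. Smaller changes, and a share of changed genes as large as in these data, were not simulated. Python 3.11.15 was used for summaries.

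The receptors, the gene lists and the naming rule were chosen with earlier results of these data known. Named were all 10 receptors, their relatives and ligands, and from the other lists the 3 called genes with the largest change in each knockout at a mean of at least 1 CPM. For receptors spanning over 2-fold between line means, the 2 genes nearest in profile were named (log2 CPM with a pseudocount of 0.01). Alternatives were DESeq2 1.42.0 with all libraries or only the groups compared, its size factors in edgeR, library size alone, no or a stricter filter, only the 2 groups compared, a replicate block, an adjusted p under 0.01, subtraction of the median of the 50 neighbouring genes, and leaving out each library. Neighbour medians were subtracted as fixed values, so the p-values of that alternative carry no error of the median. For 1-2 KO compared to 1-1 KO, the neighbour median was at first built as the difference of the 2 medians against WT. It was rebuilt on that comparison itself, as planned, after its values were seen, and the first form is kept as an alternative chosen after seeing the data.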

Additional observations from a re-analysis of the deposited data

Results flagged for a closer look

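EGFR and INSR were called in opposite directions in the 2 knockouts compared to the same WT libraries, and the direct comparison of the knockouts was also called. In 1-2 KO compared to 1-1 KO, the log2 fold change of EGFR was -1.46, with an adjusted p of 7.8e-13, and that of INSR was -0.99, with an adjusted p of 7.68e-10. With the median of the 50 neighbouring genes subtracted, these values were -1.36 and -0.75. Among all tested genes, 11.7% were called in opposite directions in the knockouts.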

How the results depend on the processing

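Of 519 values of the receptors under the alternatives, 513 kept their direction and their side of the threshold, and all but 1 of the other 6 concerned MET. With neighbouring genes subtracted, MET turned to 0.0888 in 1-1 KO compared to WT and to -0.26 in 1-2 KO compared to 1-1 KO, and IGF1R turned to -0.0220 in the latter, with adjusted p of 0.0962, 0.000155 and 0.689. ERRFI1 in 1-1 KO and SHC1 in 1-2 KO compared to WT turned to 0.0038 and 0.0092, and in 1-2 KO compared to 1-1 KO PDGFRB turned to -0.36 and IGF2 to -0.0205. In the form chosen after seeing the data, which subtracts the difference of the 2 medians against WT, MET was at -0.24 and IGF2 at -0.0949 there, while IGF1R kept its rise, at 0.16 with an adjusted p of 0.00515. The call of IGF1R in that comparison thus depends on how its neighbours are treated. MET in 1-2 KO compared to WT lost its call with library size alone, with an adjusted p of 0.0559, and without 1-2 KO replicate 1 MET was called in 1-2 KO compared to 1-1 KO, with an adjusted p of 0.0245. Of 2065 values of other named genes, 1956 kept direction and side, 34 that were uncalled in both fits changed sign, 54 lost their call, 16 gained one and 5 turned. AXL could not be tested with at least 10 counts in every library.

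Leaving out each library in turn, the receptors called in 1-2 KO compared to 1-1 KO were 3 to 4 higher and 5 lower, and the counts against WT did not move. The replicate numbers did not pair the libraries, since same-numbered libraries had correlations of -0.168 to 0.0416 in their deviations and 2 of 9 were closest to their own number. With the replicate block, 6 receptors were higher and 3 lower in 1-1 KO, 4 and 5 in 1-2 KO, and 3 and 5 between the knockouts, where 61.6%, 52.2% and 63.5% of all tested genes were called. Counts were low for AXL, for ERBB4 in WT and for HGF, IGF1 and NRG4, and KIT, TGFA, EPGN and NRG2 had too few to be tested.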
